A study of Mus musculus with 18 samples.

Results

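The occupancy of NFIA and NFIB was compared within one stage of medulloblastoma formation in the mouse cerebellum, the hyperplasia, with the 6 CUT&Tag libraries of that stage out of the 18 of the series. The members were chosen by the sample titles: 3 libraries made with NFIA as the target and 3 with NFIB, named NFIA 1 to 3 and NFIB 1 to 3, where libraries of one number share a preparation. Titles number preparations 1 and 2; the pair called 3 has a later title date, no number, and is marked as merged, with no word of what was merged. Hyperplasia cells were taken at postnatal day 28. The other 12 libraries came from tumor cells of adult mice and from granule neuron progenitors (GNPs) at postnatal day 7, each again with 3 preparations and both targets. All cells were separated on Percoll gradients from the cerebellum, and 100000 cells went into each library. The series describes the tumors as a genetically engineered mouse model; the alleles, strain, sex and antibodies are not given in the sources used here, nor whether the preparations came from separate animals, so p-values measure the spread between these preparations, which may be technical. CUT&Tag ties a transposase to an antibody on the target protein, so that DNA near the protein is cut and sequenced. The authors deposited the summits of the peaks that MACS2 called in each library, each with a score that is the −log10 of a p- or q-value.

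Nuclear factor I (NFI) proteins are a family of 4 related transcription factors in mammals, NFIA, NFIB, NFIC and NFIX, which bind DNA as homodimers or heterodimers through a shared type of DNA-binding domain. Their textbook site is a palindrome made of TTGGC and GCCAA spaced by 5 bases, and a single half-site is bound more weakly. In the cerebellum they act in granule neurons, where they control the timing of dendrite and synapse genes, and in glia. Granule neuron progenitors divide in response to Sonic hedgehog (SHH) and are the cells from which SHH medulloblastoma arises; hyperplasia is the stage of persisting growth before a tumor.

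To compare libraries with lists of very different lengths, the 30000 summits with the highest scores on chromosomes 1 to 19 (the top summits) were taken from each. Windows of 100 bp on each side of the top summits of the 6 libraries were merged into 67694 regions, and a library hit a region when one of its top summits lay in it. A total of 9206 regions, 13.6% of all, were hit in all 6 libraries. Only 106 regions (0.157%) were hit in all 3 NFIA libraries and no NFIB library, and 363 (0.536%) in all 3 NFIB libraries and no NFIA library.

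Sequences were read for promoters alone: 1548 of the 9206 (16.8%) had their median summit at least 50 bases inside a RefSeq promoter window (assembly GRCm38.p6), which runs from 250 bases before a gene's start to 50 after. The 6 best ranked of these are shown, as 101 bases centred on the summit and read 5′ to 3′ along the gene's strand, to let the letters under a summit shared by both targets be seen. Capitals mark the CCAAT box (CCAAT or ATTGG) and the NFI half-site (TTGGC or GCCAA); a region is ranked by its worst rank over the 6 libraries.
Tle4 promoter, all 6 libraries, chr19:14598260-14598360, minus strand: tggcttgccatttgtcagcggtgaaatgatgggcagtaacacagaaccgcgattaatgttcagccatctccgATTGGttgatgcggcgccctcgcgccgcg
4932412D23Rik promoter, all 6 libraries, chr16:42875552-42875652, minus strand: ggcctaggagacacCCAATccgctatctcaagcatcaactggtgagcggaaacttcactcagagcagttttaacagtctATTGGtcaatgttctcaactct
Pcx promoter, all 6 libraries, chr19:4510288-4510388, plus strand: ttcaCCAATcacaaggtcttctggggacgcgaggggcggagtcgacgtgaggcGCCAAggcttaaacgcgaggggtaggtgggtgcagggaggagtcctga
Stat3 promoter, all 6 libraries, chr11:100939532-100939632, minus strand: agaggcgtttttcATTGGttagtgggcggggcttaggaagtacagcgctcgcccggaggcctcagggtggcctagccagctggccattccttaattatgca
Mxd4 promoter, all 6 libraries, chr5:34187820-34187920, minus strand: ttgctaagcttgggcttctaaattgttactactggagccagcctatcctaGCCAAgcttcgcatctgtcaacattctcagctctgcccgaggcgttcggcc
Ubxn6 promoter, all 6 libraries, chr17:56079341-56079441, minus strand: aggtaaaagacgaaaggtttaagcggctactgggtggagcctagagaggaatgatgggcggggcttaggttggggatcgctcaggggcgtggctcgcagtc
No full NFI palindrome was present in any of the 6. In Tle4, 4932412D23Rik, Pcx and Stat3 the capitals include a CCAAT box, the element best known as the site of the trimeric factor NF-Y, and in 4932412D23Rik there are 2. Pcx and Mxd4 have 1 NFI half-site each, and Ubxn6 has neither. Tle4 encodes a Groucho corepressor, Stat3 a signal-dependent transcription factor, Mxd4 a MAX partner that opposes MYC, Pcx pyruvate carboxylase and Ubxn6 a cofactor of the VCP ATPase.

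The best ranked promoter windows hit by one target are set beside them, 2 for NFIA and 2 for NFIB, so that their letters can be seen as well; there were 9 and 18 such windows in all.
Cct5 promoter, NFIA only, chr15:31601633-31601733, minus strand: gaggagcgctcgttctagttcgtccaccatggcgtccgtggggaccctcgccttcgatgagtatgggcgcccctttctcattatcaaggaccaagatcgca
Hmgn2 promoter, NFIA only, chr4:133968028-133968128, minus strand: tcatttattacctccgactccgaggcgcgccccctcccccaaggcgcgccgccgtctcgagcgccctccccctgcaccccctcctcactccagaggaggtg
Asb8 promoter, NFIB only, chr15:98145741-98145841, minus strand: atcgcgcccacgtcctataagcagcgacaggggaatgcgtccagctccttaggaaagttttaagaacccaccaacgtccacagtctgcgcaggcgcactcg
Jarid2 promoter, NFIB only, chr13:44731104-44731204, plus strand: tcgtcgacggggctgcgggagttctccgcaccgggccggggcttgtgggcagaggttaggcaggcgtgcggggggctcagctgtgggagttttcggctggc
None of these 4 windows holds a CCAAT box or an NFI half-site. The worst rank of their regions was 19998 at Cct5 (a chaperonin subunit) and 20563 at Hmgn2 (a nucleosome-binding protein) for NFIA, and 17766 at Asb8 and 17902 at Jarid2 (a partner of Polycomb complexes) for NFIB. The worst ranks of the 6 shared windows were 64 to 113. These are the best of sets of very unequal size and rank, so the letters of the 4 windows make no comparison of targets.

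The lists themselves differed before any comparison of targets. They held 64209, 362180 and 102698 summits in NFIA 1, 2 and 3, and 129933, 170971 and 70468 in NFIB 1, 2 and 3. NFIA 2 stood apart: its list was the longest, 20.4% of its top summits were tied at the last score kept (at most 0.37% in the other libraries), and 46.2% of the regions it hit were hit by no other library, against 10.7% to 21.96% in the others. In 2 of the 6 libraries the deposited list is named for the other target (NFIA 3 and NFIB 1; 6 of 18 in the series); titles were followed, and several results are also given without NFIA 2. Region numbers, similarity by target, gene-end shares and the gene test are given without the 2 libraries named for the other target as well; the other results were not recomputed without them. The lists contain no measure of the target itself, so the labels could not be checked from them. At most 0.48% of top summit positions were identical between any 2 of the 6 libraries, so none was a copy of another. Depth is unknown, since neither reads nor coverage were used, and strong binding in few cells and weak binding in many cannot be told apart.

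**Figure D1:**
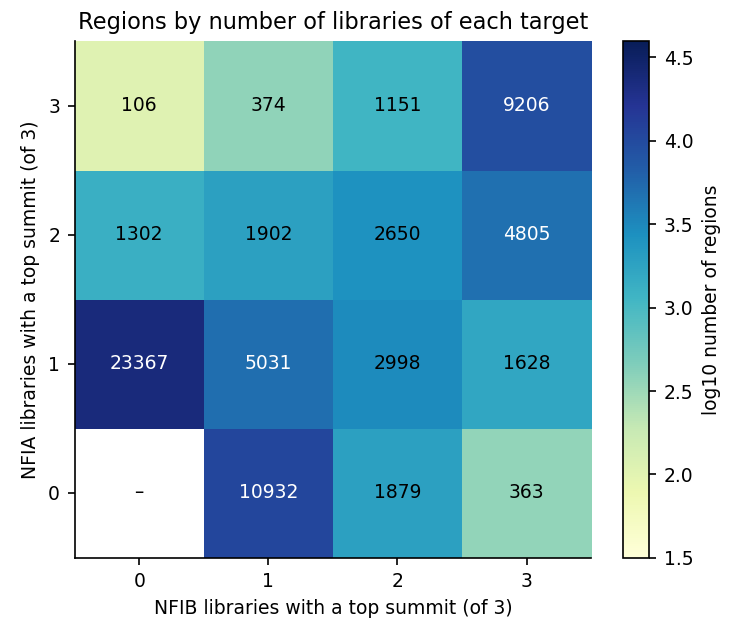
Number of regions by how many of the 3 NFIA libraries (vertical axis) and of the 3 NFIB libraries (horizontal axis) had a top summit in them; colour is the log10 number of regions. The corners at 3 of one target and 0 of the other hold 106 (NFIA) and 363 (NFIB) regions, against 9206 at 3 and 3.

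Regions hit in more libraries lay more often at gene ends. Of regions hit in 1 library, 13.6% lay within 1 kb of either end of a protein-coding gene, and this share was 20.1%, 22.5%, 24.4% and 30.6% for 2, 3, 4 and 5 libraries and 33.3% for all 6. Of the 9206 shared regions, a further 36.1% lay inside a gene and 30.6% between genes, and 861 were over 100 kb from any coding gene. They were near 5860 genes, 28.4% of the 20665 autosomal coding genes. Of the one-target regions, 28.3% (NFIA) and 19.8% (NFIB) were at gene ends, 30 and 72 regions. In the libraries as a whole, gene ends held 24.5%, 18.2% and 28.5% of top summits in NFIA 1, 2 and 3, and 26.1%, 27.8% and 25.5% in NFIB 1, 2 and 3. The mean was 23.7% ± 5.18 for NFIA and 26.4% ± 1.18 for NFIB (SD, n = 3 each), and the difference by preparation of -2.72 percentage points did not pass an exact two-sided sign-flip test (p = 0.75; the smallest possible was 0.25). It was 0.692 with NFIA 2 left out, the opposite direction, and -5.29 without the 2 libraries named for the other target.

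The 12 best ranked shared regions were nearly all at gene ends (11 of 12), and each was hit in all 6 GNP and all 6 tumor libraries as well. At the head was the end of Rab40c, a small GTPase that recruits ubiquitin ligases (chr17:25919940-25920208), with ranks of 17, 15 and 9 in NFIA 1, 2 and 3 and of 16, 4 and 5 in NFIB 1, 2 and 3. Rab1a, a GTPase of transport from the endoplasmic reticulum to the Golgi, followed (chr11:20201075-20201352), with ranks of 15, 12 and 19 in the NFIA libraries and 21, 21 and 9 in the NFIB libraries. The region at Hbp1, an HMG-box repressor of cell cycle genes (chr12:31950339-31950598), ranked 31, 14 and 22 in NFIA and 7, 25 and 2 in NFIB. Both targets thus placed each of these 3 sites among their first 31 summits, in every library. The one exception to gene ends lay 21474 bp from Edn2, the gene of the peptide ligand endothelin 2 (chr4:120188834-120189085), and was the first summit of NFIA 1, with ranks of 5 and 38 in NFIA 2 and 3 and 4, 9 and 20 in NFIB 1, 2 and 3. The others were at Srgap2 (a GTPase-activating protein of neuronal migration), Rap2a, Ubxn6, Map3k3, Tbl2, Pja2 (a ubiquitin ligase), Evi5l and Tle4, with worst ranks of 41 to 81.

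Some genes carried many shared regions. Gse1, a component of a histone demethylase complex, had 16, and Auts2, a neurodevelopmental Polycomb partner, 14. Zbtb7c had 11, Camta1 and Tenm4 (a teneurin adhesion protein) 10 each, and Nav2, Nfia, Slc39a11, Ephb1 and Ralgapa2 9 each. These are long genes, from 272379 bp (Ralgapa2) to 1105888 bp (Auts2) among the 10 named, and the numbers were not scaled to length.

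Sharing between libraries was measured as the Jaccard index, the regions hit by both libraries of a pair over those hit by either. Libraries of the same target had no higher mean index than libraries of different targets. Over the 6 pairs of one target from different preparations the mean index was 0.425 (0.268 to 0.525), and over the 6 NFIA to NFIB pairs from different preparations it was 0.427 (0.284 to 0.555). The difference of -0.00248 was within the spread (exact two-sided test over swaps of the targets within preparations, p = 0.75; the smallest possible was 0.25). The NFIA and NFIB libraries of one preparation shared no more either, with a mean of 0.419 over 3 pairs, -0.00875 from the pairs across preparations (exact test over the 6 matchings, two-sided p = 0.333; the smallest possible was 0.167).

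**Figure D2:**
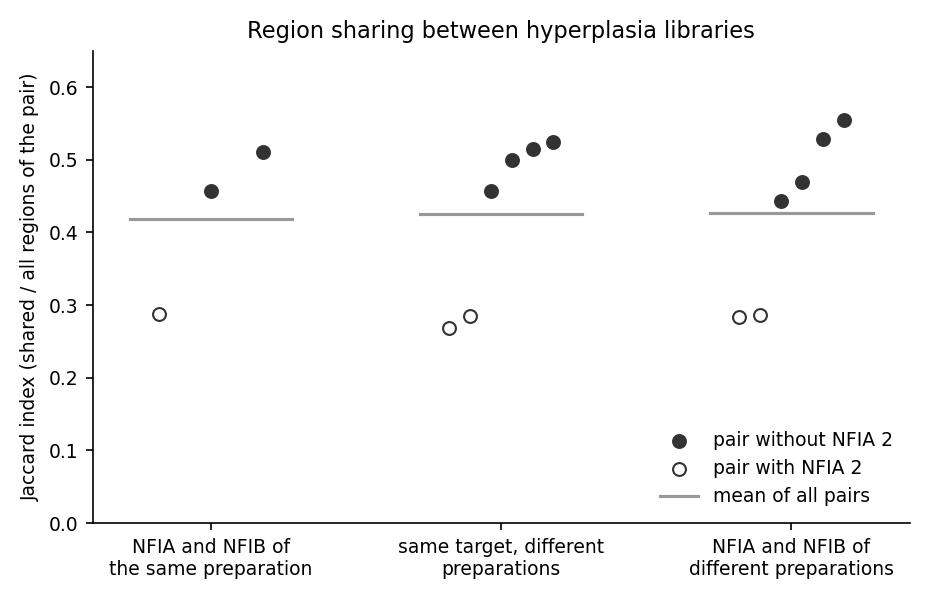
Jaccard index (vertical axis) of the 15 pairs of hyperplasia libraries, by kind of pair; open points are pairs with NFIA 2 and lines are means over all pairs of a kind. Pairs with NFIA 2 lie at 0.268 to 0.288 in all 3 kinds, and the other pairs overlap between kinds.

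The lowest indices all belonged to NFIA 2. Its 5 pairs had a mean of 0.282, and without it the means were 0.499 for the same target, 0.499 for different targets and 0.484 within preparations; the difference by target was then 0.000419 (exact p = 1). The pair most alike in the stage was NFIA 3 with NFIB 2, at 0.555, a pair of different targets and different preparations, and NFIA 3 is one of the libraries named for the other target. Without both such libraries, the mean was 0.374 over 2 pairs of the same target and 0.378 over 3 pairs of different targets, too few for a test. NFIB libraries were alike at 0.499 to 0.525, against 0.457 for NFIA 1 with NFIA 3.

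NFIA 2 also set the number of shared regions. Of 12989 regions hit in the other 5 libraries, 3783 had no top summit of NFIA 2, whereas the regions that missed only one of the other libraries numbered 345 (NFIB 2) to 658 (NFIA 1). Of the 3783, 46.9% did have an NFIA 2 summit further down its list; for regions missing NFIA 3, NFIB 1 or NFIB 2 alone this was 91.5%, 89.4% and 94.8%, for NFIB 3 78.5%, and for NFIA 1 48.3%. Built from the 5 libraries without NFIA 2, there were 12889 shared regions, 664 in NFIA libraries alone and 534 in NFIB libraries alone. An NFIA-only region then needed 2 NFIA libraries and an NFIB-only region still 3. With both libraries of preparation 2 left out, 1170 regions were in NFIA libraries alone and 1469 in NFIB libraries alone, so that NFIB had more, as with all 6.

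Sharing was highest among the best ranked summits. Among the 1000 highest NFIA summits, 86.7%, 74.9% and 92.2% had a top NFIB summit of the same preparation within 100 bp in preparations 1, 2 and 3. Among the NFIA summits of rank 20001 to 30000 the shares were 18.4%, 7.60% and 26.9%. NFIB summits gave 85.9%, 73.5% and 90.9% for the first 1000 and 21.2%, 12.5% and 25.0% for the last 10000. The share fell with each step of rank in all 6 libraries, and preparation 2, which holds NFIA 2, was lowest in each bin. At gene ends the share of NFIA summits with a partner was 47.8%, 40.8% and 51.1% in preparations 1, 2 and 3, against 37.9%, 23.0% and 46.2% inside genes. For NFIB summits it was 44.8%, 26.8% and 56.9% at gene ends, against 39.2%, 25.4% and 44.5% inside genes. Among the first 5000 summits the order of the places was not the same in all libraries: NFIA gave 77.4%, 63.9% and 78.7% for gene ends and 76.6%, 59.9% and 81.4% inside genes, and NFIB 74.8%, 52.3% and 83.0% for gene ends and 73.0%, 55.5% and 82.2% inside genes.

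**Figure D3:**
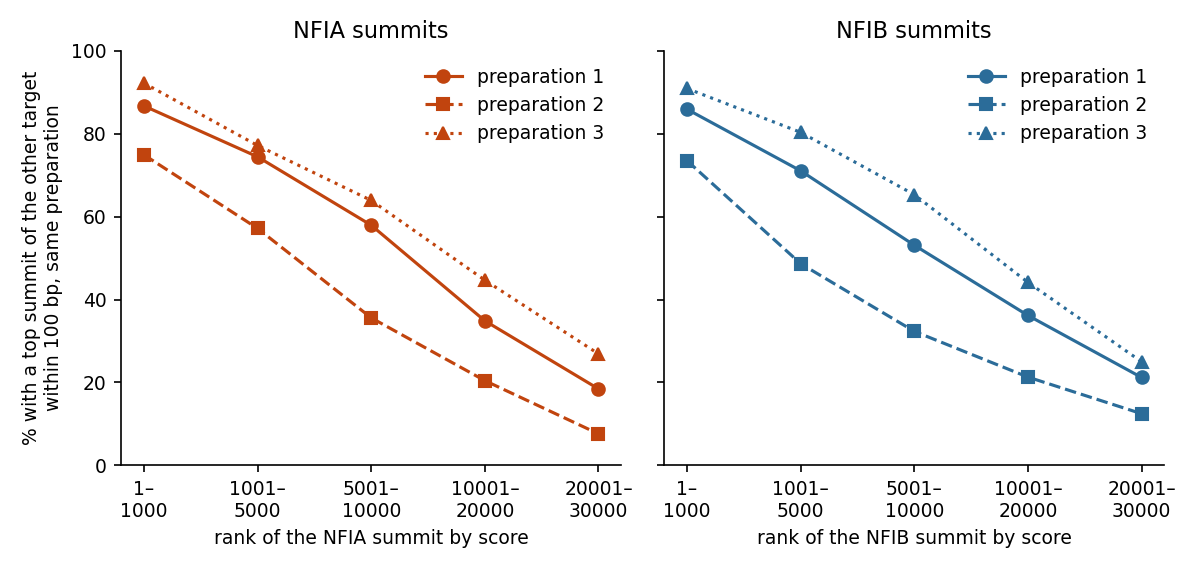
Share of summits with a top summit of the other target within 100 bp in the same preparation (vertical axis, %), by rank of the summit (horizontal axis); NFIA summits on the left, NFIB summits on the right, 1 line per preparation. The share is between 73.5% and 92.2% for the first 1000 summits and between 7.60% and 26.9% for the last 10000.

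Within the 9206 shared regions, the best summits of the targets lay close together. The median distance from the NFIA to the NFIB summit was 66 bp in preparation 1, 89 bp in preparation 2 and 60 bp in preparation 3. It was smallest, 42 bp, between NFIA 3 and NFIB 2, and 66 to 70 bp for the pairs of NFIA 1 and 85 to 89 bp for those of NFIA 2. Same-preparation pairs exceeded the others by 4.67 bp, which did not pass an exact test over the 6 matchings (two-sided p = 0.667). NFIB libraries were 47 to 52 bp from each other, whereas NFIA libraries were 78 to 97 bp from each other, further than NFIA 3 was from any NFIB library (42 to 60 bp). Being merged from windows of 100 bp, the regions limit how far apart summits could lie.

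The regions of one target came from low in the lists, as did regions hit in 3 libraries of any target. The best worst rank of an NFIA-only region was 11554 and of an NFIB-only region 6120, against 17 for a shared one. The median worst rank was 25268.5 for NFIA-only, 25169 for NFIB-only and 14020 for shared regions. Over all 5369 regions hit in 3 libraries, the one-target regions among them, it was 25257. The low rank was thus not particular to regions of one target. That first NFIA-only region lay 69543 bp from Bace2, an aspartyl protease gene (chr16:97286889-97287185), with ranks of 9539, 10940 and 11554 in NFIA 1, 2 and 3, and all 3 NFIB libraries had a lower ranked summit there. Among the next were the region inside Adamtsl2, a gene of the extracellular matrix, that at an end of Tgfb3, the growth factor, and that inside Ntm, a neuronal adhesion protein. Ola1, Tbc1d14, Trmt61a and Zfp689 complete the first 8, of which 3 were at gene ends.

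The first NFIB-only region lay at an end of Gm35315, a predicted coding gene (chr5:110094467-110094688), with ranks of 3959, 3748 and 6120 in NFIB 1, 2 and 3; lower ranked summits were listed there in 2 NFIA libraries. It was followed by regions inside Thsd4 and Kcnab1 (a potassium channel subunit), near Nav2 and Mcee, inside Itpr1, the IP3 receptor abundant in Purkinje cells, 5670 bp from Barhl2, a homeobox gene of the granule lineage, and 22970 bp from Sod1. The region at Barhl2 (chr5:106446574-106446853) had ranks of 14265, 11228 and 9073 in NFIB 1, 2 and 3, and 2 NFIA libraries had a lower ranked summit in it.

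In the complete lists, most one-target regions held a summit of the other target too. Of the 106 NFIA-only regions, 102 (96.2%) had an NFIB summit at some rank, and of the 363 NFIB-only regions, 304 (83.7%) had an NFIA summit. By library, the NFIA-only regions held a summit of NFIB 1, 2 and 3 in 71.7%, 79.2% and 59.4% of cases, and the NFIB-only regions one of NFIA 1, 2 and 3 in 28.4%, 28.9% and 75.2%. NFIA 3 was thus the NFIA library in which most NFIB-only regions were found. The 4 NFIA-only regions with no NFIB summit at all were at an end of Zfp579, inside Mepe, inside Adamts6 and 60809 bp from Arhgap21, with worst ranks of 22786 to 27563. Without the 2 libraries named for the other target, one-target regions numbered 903 (NFIA) and 2761 (NFIB), of which 69.0% and 44.4% had a summit of the other target at some rank; with fewer libraries, a region needs fewer of them to count.

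The one-target regions were then looked up in the other stages. Some lists of those stages are also named for the other target (6 of 18 in the series, 2 of them in hyperplasia). The lookup followed the titles and was not repeated without them. In the 6 GNP and tumor preparations, NFIA-only regions were hit in 31.3% ± 6.35 of cases by NFIA libraries and 33.8% ± 2.56 by NFIB libraries (SD, n = 6 each). NFIA was higher in 2 of 6 preparations, and the difference of -2.52 percentage points did not pass an exact two-sided sign-flip test (p = 0.469; the smallest possible was 0.0312). NFIB-only regions were hit in 37.9% ± 5.93 by NFIA libraries and 41.5% ± 7.99 by NFIB libraries (n = 6 each), with NFIA higher in 1 of 6 preparations and an exact p of 0.156. Shared regions were hit in 87.2% ± 4.38 by NFIA and 90.0% ± 5.01 by NFIB libraries (exact p = 0.188, n = 6 each). In the 12 libraries the share of shared regions hit was 80.3% at the lowest, and that of one-target regions 48.2% at the highest.

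The shared landscape was not confined to hyperplasia. Of its 9206 regions, 6361 (69.1%) were hit in all 6 GNP libraries, 5535 (60.1%) in all 6 tumor libraries and 4525 in all 12. Only 160 were hit in no GNP library and 36 in no tumor library. In 8 regions neither stage had a top summit; 6 of these lay inside genes, among them Ppara, the lipid-sensing nuclear receptor, and Cacna2d3, a calcium channel subunit (named after their values were seen). All 8 had a lower ranked tumor summit and 7 a lower ranked GNP summit. The share of top NFIA summits with an NFIB summit within 100 bp was 40.2%, 25.4% and 47.9% in the 3 hyperplasia preparations. Its mean was 37.8% ± 11.4 in hyperplasia, against 38.5% ± 11.4 in tumors and 46.9% ± 10.6 in GNPs (SD, n = 3 each). Hyperplasia differed from tumors by -0.673 and from GNPs by -9.03 percentage points (exact permutation tests, two-sided p = 0.8 and 0.5; the smallest possible was 0.1). Without NFIA 2, and so without that pair, the differences were 5.55 and -2.81. Hyperplasia and GNP preparations share title dates, which the permutation did not use: on the earlier date hyperplasia had 40.2% and 25.4% and GNPs 37.5% and 44.6%, and on the later one hyperplasia had 47.9% and GNPs 58.4%. The 3 tumor preparations have other dates, so for them date and stage cannot be told apart.

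For a test by gene, top summits within 100 kb of a coding gene were assigned to the closest one. Their numbers were compared between targets with limma on log2(summits + 0.5), with preparation as a block, in the 9060 genes averaging 1 or more summits per library. One gene passed an adjusted p of 0.05 (0.011% of those tested), Asic4, a member of the acid-sensing ion channel family (chr1:75450510-75474340). It had 2, 2 and 2 top summits in NFIA 1, 2 and 3 and 0, 0 and 0 in NFIB 1, 2 and 3 (limma adjusted p = 0.0341). Asic4 thus met the filter of 1 summit per library through the NFIA libraries alone. Without that filter it did not pass (limma adjusted p = 0.0842). Its numbers did not vary within either target, and its standard error was 0.015. In the complete lists it had 3, 5 and 6 summits in the NFIA libraries and 7, 8 and 2 in the NFIB libraries. The groups that did not overlap among the top summits thus overlapped in the complete lists, and the difference lay in rank: the best ranked summit was at 13877, 7285 and 22469 in NFIA and at 38291, 32343 and 43487 in NFIB. The call did not hold with an NFIB library or a preparation left out (limma adjusted p of 0.072 to 0.231). At an unadjusted p of 0.05, 403 genes were under the threshold, 180 higher and 223 lower in NFIA. Without the block, 38 genes passed (0.419%), 12 higher and 26 lower in NFIA, but 36 of the 38 had the same whole number in all libraries of each target, such as Celsr3 (a planar polarity cadherin) with 3 in each NFIA library and 1 in each NFIB library; 818 of the 9060 genes tested had such numbers. The number of calls moved with the setting. With the top 15000 summits 23 genes passed (0.422%), 9 higher and 14 lower in NFIA, and Asic4 was not among them. Without the 2 libraries named for the other target, and without the block, 369 passed (4%), 122 higher and 247 lower in NFIA. That fit had only 2 libraries of each target, where equal numbers within a target arise more easily. How many of the 369 had such numbers was not counted, so they are not read as genes that differ by target. A gene that missed the threshold was not shown to have equal numbers in both targets.

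Summits at the genes of the factors' own family were described next. Each of the 4 NFI genes held shared regions, 21 in all: 9 at Nfia, and 4 each at Nfib, Nfic and Nfix, all inside the genes other than 1 near Nfib and 1 near Nfic. Nfia had 24, 18 and 31 top summits in NFIA 1, 2 and 3 and 30, 32 and 26 in NFIB 1, 2 and 3. The groups overlapped, and the log2 difference of -0.29 ± 0.27 (SE) did not pass (limma adjusted p = 0.757). Nfib had 15, 11 and 16 in the NFIA libraries and 12, 14 and 11 in the NFIB libraries, a log2 difference of 0.17 (limma adjusted p = 0.913), also with overlap. Nfix had 9, 7 and 6 in NFIA and 7, 10 and 11 in NFIB (-0.32, limma adjusted p = 0.769), and Nfic 8, 8 and 9 in NFIA and 9, 9 and 8 in NFIB (-0.05, limma adjusted p = 0.985). The best ranked shared regions of the family were inside Nfia (chr4:97618659-97619007, worst rank 2686) and inside Nfix (chr8:84773993-84774308, worst rank 2863).

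**Figure D4:**
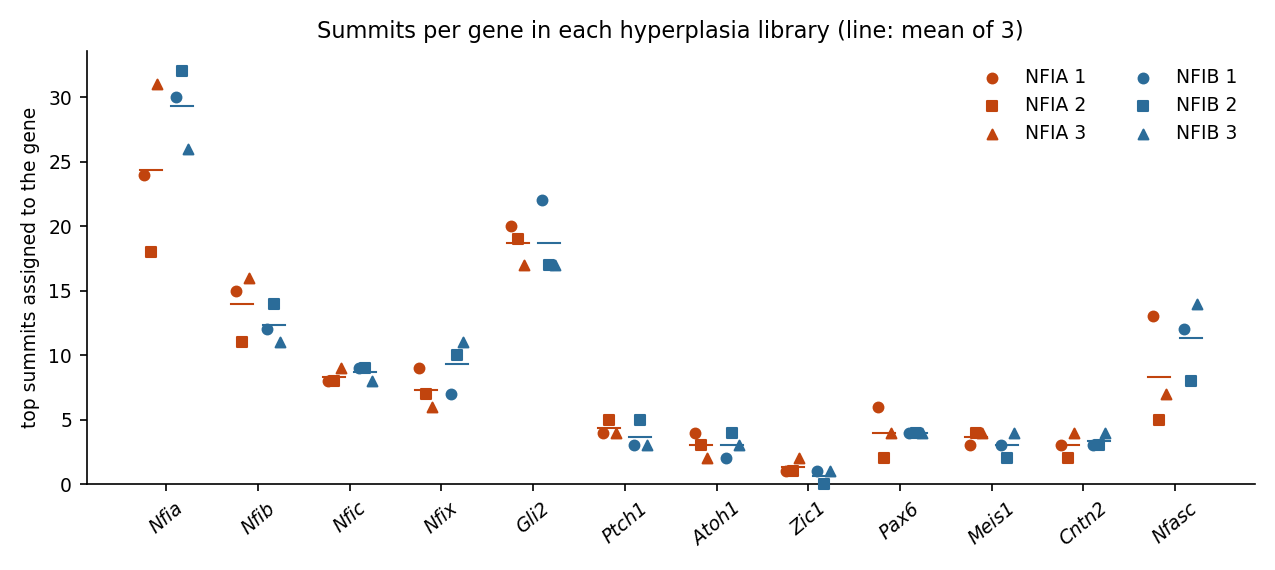
Top summits assigned to 12 genes of the NFI family, the SHH pathway and the granule lineage (vertical axis, number) in each NFIA library (red, left) and NFIB library (blue, right); lines are means of 3. The groups overlap or touch at all 12 genes, and Nfia has the highest numbers, 18 to 32.

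A total of 125 genes stood in 12 lists (NFI family, SHH pathway, granule lineage, cell cycle, glia, other cell types). Of these, 88 were tested between the targets and none passed with limma. An unadjusted limma p under 0.05 was found for 5 of the 88, against 403 of all 9060 genes tested. The smallest limma adjusted p was 0.753, at Stmn2, a microtubule-binding protein of growing neurites. Stmn2 had 3, 2 and 3 top summits in NFIA 1, 2 and 3 and 5, 4 and 6 in NFIB 1, 2 and 3 (log2 difference -0.80 ± 0.08 SE). In the SHH pathway, 11 of 15 genes had shared regions (24 in all), against 28.4% of all coding genes. The shares of this and the following lists were not scaled to gene length. Gli2, which spans 220345 bp, held 7 of the 24 regions. Gli2, a main activator of SHH targets, had the most top summits of this list, 20, 19 and 17 in the NFIA libraries and 22, 17 and 17 in the NFIB libraries. Ptch1, the SHH receptor, had 4, 5 and 4 in NFIA and 3, 5 and 3 in NFIB. Sfrp1, a secreted WNT inhibitor induced by SHH, had 7, 6 and 7 in NFIA and 3, 5 and 3 in NFIB, and did not pass (log2 difference 0.81, limma adjusted p = 0.757). By the sign of the log2 difference, 7 of the 14 tested members were higher in NFIA and 6 lower. The median log2 difference was 0.0036, against 0 over all genes tested.

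Among granule progenitor genes, 8 of 13 had a shared region (28.4% over all coding genes), including Atoh1, the proneural factor that defines the lineage, with 4, 3 and 2 top summits in NFIA and 2, 4 and 3 in NFIB. Tcf4, a class I helix-loop-helix partner, had the most, 7, 6 and 8 in NFIA and 11, 8 and 11 in NFIB, and Lhx9 the fewest, 2, 1 and 0 in NFIA and 0, 0 and 0 in NFIB. Of the genes that NFI proteins are known to time in maturing granule neurons, 2 of 10 had shared regions, Tiam1 (4) and Wnt7a (1). Tiam1, a RAC activator, had 13, 15 and 8 in NFIA and 9, 8 and 7 in NFIB, whereas Gabra6, the granule cell GABA receptor subunit, had 0, 1 and 0 in NFIA and none in NFIB. Granule neuron differentiation genes had shared regions in 9 of 15 cases, most at Reln (5), the secreted signal of granule cells. Of the 15, Dcx is not on an autosome and so could have none. In this list the log2 difference was below 0 (lower in NFIA) for 13 of 14 tested genes and 0 for 1, none past the test. The list's median was -0.26, against 0 over all genes tested. Grm4 is among the 13 at -0.0067, though its mean number was 11.7 in both targets. Over all 9060 genes tested, the log2 difference was below 0 for 4255, above 0 for 3287 and 0 for 1518. The list's top summits summed to 89, 69 and 76 in NFIA 1, 2 and 3 and to 94, 89 and 92 in NFIB 1, 2 and 3, groups that touch at 89; NFIA 2, the library apart, was lowest. Rbfox3, the NeuN gene, had the most, 22, 15 and 19 in NFIA and 22, 22 and 18 in NFIB.

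Cell cycle genes had shared regions in 7 of 16 cases, against 28.4% of all coding genes, with 5 of the 12 regions at Mki67. Their sums were 28, 23 and 31 in NFIA and 29, 37 and 36 in NFIB, with NFIA 2 the lowest. Among the 11 tested genes 8 were lower in NFIA and 3 the same, none past the test. Genes of other cell types also had shared regions, in shares above, near or below the 28.4% of all coding genes: 5 of 10 astrocyte and Bergmann glia genes (10 regions, Sox9 with 3), 5 of 10 oligodendrocyte lineage genes (10, Mbp with 4), 4 of 11 Purkinje and interneuron genes, 3 of 8 vascular genes (Cdh5 with 3) and 1 of 7 microglia genes had them. None of the 6 genes of tissues outside the brain had one. A summit marks a position and not expression, so these numbers do not check which cells were present. One-target regions fell at 7 list genes. They were 1 NFIA-only region inside Nfic and 6 NFIB-only regions, inside Itpr1, Nfia and Cntn1 and near Barhl2, Nfib and Hopx. These 7 genes had from 6 (Barhl2, Hopx) to 55 (Nfia) regions of any kind. Of all regions, 0.157% were NFIA-only and 0.536% NFIB-only. The share of all regions that lay at list genes was not computed, so no preference for list genes is shown.

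The letters under the summits were counted in the 101-base windows of all promoter regions on both strands. The full palindrome (TTGGC and GCCAA spaced by 5 bases) was in 0 of the 1548 shared windows, and the shorter form without the outer bases in 3 (0.194%); at the centre of all 31365 promoters they were in 0.0128% and 0.335%. An NFI half-site was in 34.8% of shared windows, 19.8% of the 798 windows hit in 1 library and 21.2% of promoter centres. Many of these letters were part of a CCAAT box extended by 1 base. Half-sites outside CCAAT boxes were in 18.3% of shared windows, 14.3% of 1-library windows and 15.3% of promoter centres. The CCAAT box was in 38.1% of shared windows, 12.7% of 1-library windows and 18.05% of promoter centres. Along the number of libraries hit, its share was 12.7%, 13.2%, 17.2%, 19.3%, 30.04% and 38.1% for 1 to 6 libraries. It also followed rank within the shared windows, at 47.5% for worst ranks of 1 to 5000, 37.8% for 5001 to 15000 and 31.8% for worst ranks beyond 15000. The GC box (GGGCGG or CCGCCC), the site of SP and KLF factors, was in 46.6% of shared windows, 27.4% of 1-library windows and 19.2% of promoter centres. Windows were GC rich, with a median of 63.9% for shared and 61.4% for 1-library windows against 53.5% for promoter centres. The CCAAT and GC boxes were added to the search after the sequences had been seen, and a match is a description of letters, not of what bound there.

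**Figure D5:**
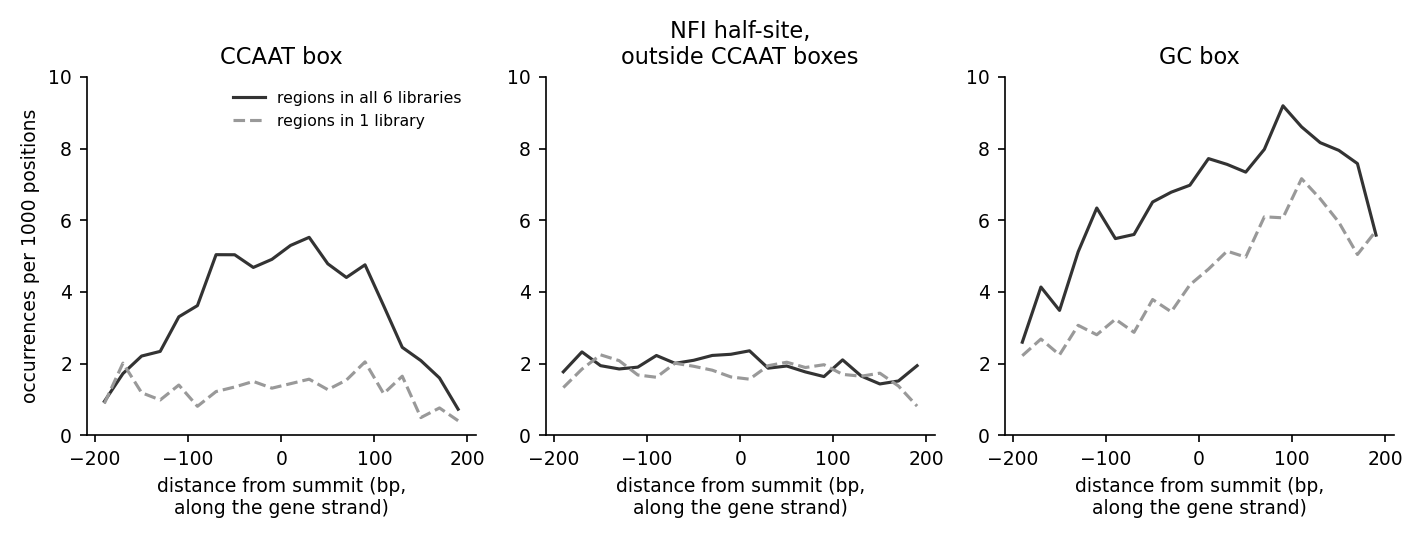
Occurrences per 1000 positions (vertical axis) of the CCAAT box, of the NFI half-site outside CCAAT boxes and of the GC box, by distance from the summit (horizontal axis, bp), in promoters with a region hit in all 6 libraries (solid) or in 1 library (dashed). The CCAAT box peaks around the summits of shared regions, at 5.52 per 1000 positions. The half-site curves cross: they stand at 2.36 (all 6 libraries) and 1.57 (1 library) in the bin from 0 bp. In the bin from 40 bp they stand at 1.93 and 2.04.

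The shares of these letters did not separate the targets. In the top promoter summits of each library, the CCAAT box was in 24.7%, 26.0% and 31.7% for NFIA 1, 2 and 3 and in 26.7%, 28.1% and 25.3% for NFIB 1, 2 and 3. The means were 27.5% ± 3.69 for NFIA and 26.7% ± 1.41 for NFIB (SD, n = 3 each), a difference of 0.740 within the spread (exact sign-flip test, two-sided p = 1). Half-sites outside CCAAT boxes were in 17.5% ± 0.296 for NFIA and 17.6% ± 0.291 for NFIB (exact p = 0.75, n = 3 each), and GC boxes in 42.2% ± 1.60 for NFIA and 40.7% ± 0.850 for NFIB (exact p = 0.5, n = 3 each); the smallest p possible was 0.25. Only 9 NFIA-only and 18 NFIB-only regions had windows, with 1 and 2 CCAAT boxes, too few to compare. These windows are promoters alone, 16.8% of the shared regions, and say nothing of the letters at the regions inside and between genes.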

How the data were processed

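NFIA and NFIB CUT&Tag reads were mapped to mm10 by Bowtie2, and MACS2 called the peaks, per the submitters' processing notes (no versions are given, and use of a control library is not stated). The authors deposited 1 summit list per library, called separately, with a score that is the −log10 of a p- or q-value (which of these is not stated). The lowest score in the 6 lists was 2.00, so weaker sites are missing. Coordinates are mm10, 1-based.

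Titles gave stage, target and preparation. The 30000 highest summits on the 19 autosomes were kept per library, with ties broken by a fixed seed (1). Distance classes used 20665 RefSeq coding spans (GRCm38.p6), which carry no strand. Promoter windows matched 79.5% of coding genes, none on chromosome 18. The gene test used limma 3.58.1 under R 4.3.3, with a trend and Benjamini-Hochberg adjustment, after a check on simulated data; other tests were exact, in Python 3.11.15 with SciPy 1.17.1. A pseudocount of 0.5 understates changes of genes with few summits. NFIA and NFIB libraries were paired by preparation, from a shared title number for 1 and 2 and from a shared title date for 3, whose titles carry no number and are marked as merged; paired libraries did not deviate together across genes (correlations of 0.0425, -0.0485 and -0.0598). The regions, genes and lists were chosen with earlier results of these data known: the text names the 12 best ranked shared regions and 8 of each target, the genes called, those with most shared regions, and list members with the highest and lowest numbers; 2 genes under these rules are not reported here. Alternatives were other list depths, widths, seeds, distances and filters, and libraries left out.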

Additional observations from a re-analysis of the deposited data

Results flagged for a closer look

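The 6 hyperplasia libraries list 15934 summits on chromosome X, which entered no comparison because only autosomes were ranked. By library they numbered 1106, 7996 and 1390 in NFIA 1, 2 and 3 and 1702, 2778 and 962 in NFIB 1, 2 and 3, with NFIA 2, the library with the longest list, at the top.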

How the results depend on the processing

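Shared regions numbered 4906 with the top 15000 summits and 6090 with windows of 50 bp on each side. With libraries left out they numbered 9731 to 13479, and 9573 without the 2 libraries named for the other target. Regions of NFIA alone were 30 with all summits of score 5 or more and 689 to 1170 with a preparation left out (664 without NFIA 2); regions of NFIB alone were 157 with the top 15000, 1140 with scores of 5 or more and 1469 to 2635 with a preparation left out (534 without NFIA 2). Without the 2 libraries named for the other target they numbered 903 (NFIA) and 2761 (NFIB), of which 69.0% and 44.4% had a summit of the other target at any rank. These shares were 59% (NFIA) and 56.7% (NFIB) with 50 bp windows, and 76.7% to 80.4% (NFIA) and 42.9% to 75.3% (NFIB) with a preparation left out. The difference in similarity by target ran from -0.0203 to 0.0215 with libraries left out, being positive without NFIA 2 (0.000419) and without preparation 3 (0.0215). The gene-end difference was 0.602 with scores of 5 or more and -5.58 to 0.692 with libraries left out. The difference in partner share between hyperplasia and tumors was 4.15 with scores of 5 or more and -5.69 to 5.55 with libraries left out, and the summit distance by preparation -0.5 to 10.5 bp. None of the differences that were tested passed, but none of these exact tests could reach 0.05 in any setting. With all preparations the smallest possible p was 0.25 for target swaps and sign flips. It was 0.167 over the 6 matchings and 0.1 for permutations between stages. Without the 2 libraries named for the other target, none of these differences was tested. The cause of the changes in direction was not tested.

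The blocked gene test called 1 gene, and 38 without the replicate block for preparation. With the block it called 0 genes with a mean of 3 summits, without a filter, with all or high-scoring summits scaled to equal totals, with genes within 20 kb and with any library or preparation left out, 23 with the top 15000 (none shared with the reported call) and 3 with another seed. Where it called 0, 116 to 773 genes had an unadjusted p under 0.05. Without the libraries named for the other target, no residual degrees of freedom remained with the block. Without the block 369 genes passed, with fewer libraries of each target and no count of those with equal numbers within a target. This alternative was added after the data were seen, as were that for the other values without these libraries and those for the letters. Asic4 was -0.19 in log2 with all summits scaled, as the complete lists give. Nfib was -0.30 with all summits scaled, -0.041 with high-scoring summits scaled and -0.012 to 0.42 with a library or preparation left out (-0.012 without number 3), and Nfix 0.17 with the top 15000, none past the test. The CCAAT box share was 36.3% without NFIA 2 and 25.6% with 30 bases on each side. Depth is unknown and low-ranked summits limit the one-target regions. In all, 76 recomputed values of comparisons and 74 of single genes, some of them printed above, counted as unchanged. For tested values this meant the same direction and side of the threshold. For counts and shares the range allowed was wide. Without preparation 2, 13479 shared regions counted as unchanged against 9206. The share of NFIB-only regions with an NFIA summit at any rank did so too, at 72.5% against 83.7%. Another 41 counts or shares moved, and 9 values of comparisons changed direction. For single genes, 7 values changed direction and 8, all at Asic4, lost their call. The exact tests could not pass in any setting, so for their values only the direction could change.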
